A study of Daphnia sinensis with 8 samples.

Results

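Of the 11114 unigenes listed in *D. sinensis*, 42 peaked in sexual females (SF), the females that carried resting eggs. The members were chosen by a rule on counts per 1000000 counts of a library (CPM). The largest log2 gap between the ordered stage means had to part SF from juvenile females (JF), parthenogenetic females (PF) and males (M), which 437 unigenes met. The SF mean had to be at least 5 CPM, which left 198. The lower SF library had to be at least 1.5 times the highest of the 6 other libraries, and this quotient is called the ratio below. All 42 unigenes that passed were kept, since the limit of 200 was not reached, and none of them was among the 11 named genes of the study's candidate table (0 dropped). Each listed unigene had a count above 0 in every library, so a unigene without counts outside SF could not be a member, and the 42 are a count over this list only. As the rule used the level of SF against every other library, the height of SF is a description here and was not tested.

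There were 8 poly-A RNA libraries, 2 of each stage. The RNA came from pooled animals of a laboratory culture founded from Lake Chaohu. JF were neonates of at most 12 h, about 500 per sample, from 20 mothers kept with 1 mother per beaker. PF and SF, about 50 per sample, were picked under the microscope among adults with an age of 2 to 3 weeks, in beakers that were started with 10 mothers each, 60 mothers in all. PF carried eggs for the first time and SF carried resting eggs. Males, about 60 per sample, came from the same crowded beakers as juveniles and were then raised apart for 2 weeks, with an age of 2 to 3 weeks in the sample labels. The methods also describe males as within 12 h of birth, which differs from the labels. Each pool was made of whole animals, so the RNA of the mothers and that of the eggs they carried cannot be told apart, nor can fewer cells of a type and less RNA per cell. Culture and age differ between JF and the adults and cannot be told apart from stage. Males were also cultured apart from PF and SF, so in M vs PF culture cannot be told apart from stage either. The sources used here do not say whether the 2 pools of a stage came from different beakers, so the p-values measure only the spread between these pools.

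The total count was from 17172891 to 27160267 per library. The replicates of SF and PF differed by more than those of M over all unigenes with at least 5 CPM in SF. The median absolute log2 difference between replicates was 0.26 in SF, 0.27 in PF, 0.15 in JF and 0.05 in M for these 7874 unigenes, and 0.75, 0.64, 0.25 and 0.10 for the 42 members. The replicates of SF and of PF thus stood furthest apart among the members, and their values are given separately below.

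*Daphnia* reproduces by parthenogenesis while conditions are good, and the eggs of a parthenogenetic female develop at once in her brood chamber. In crowded or otherwise poor conditions males and sexual females appear. The sexual female makes large resting eggs that need fertilization, and part of her carapace thickens into the ephippium, a case in which the eggs are shed and the arrested embryos survive. The unigene IDs carry no gene names, and 0 of them matched the reference gene table of *D. sinensis*. No marker of sexual females could therefore be looked up, and the stage was taken from the labels. For the same reason the members are described below by level and pattern, and no role is given.

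A description is given for a single member. Cluster-5789.11844 is among the 36 unigenes that the study listed as candidate male-biased genes (28 of them are in the analysed files), with a best match to an uncharacterized protein (LOC116923216 isoform X2). The study measured it by qPCR, and its primers are shown because they are the only sequences at hand that identify a member and they allow it to be measured again in sexual females. Both are given from 5′ to 3′ in lower case, with no part marked.
Cluster-5789.11844 forward: tcgtagccttgaggattc
Cluster-5789.11844 reverse: gcacaactaacagataccatt
The forward primer has 18 bases and the reverse primer 21. This unigene had 1755 and 3642 CPM in SF, 26.8 and 196 in PF, 30.9 and 30.5 in M, and 8.29 and 12.0 in JF (replicate 1 and 2 of each stage). It was the member with the second highest SF mean, at rank 21 of all listed unigenes by SF mean. The SF mean was 24.3 times that of PF, 87.9 times that of M and 266 times that of JF.

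The expression level of the members in SF covered a wide range. The SF mean was from 5.82 to 5957 CPM, with a median of 135 CPM, against a median of 47.3 CPM over the 7874 unigenes with at least 5 CPM in SF. It was under 20 CPM in 8 members, from 20 to under 100 CPM in 11, from 100 to under 500 CPM in 14 and at least 500 CPM in 9. The ratio had a median of 2.75. It was 10 or more in 5 members, 5 or more in 12, 3 or more in 20 and under 2 in 14. By stage means, SF was higher than JF by a median of 9.18-fold, than PF by 7.17-fold and than M by 4.93-fold over the 42 members. Together the members took 1.19% and 2.40% of all counts in SF replicate 1 and 2, and from 0.0865% to 0.163% in the other libraries. A single unigene made up 32.9% and 33.3% of the members' sum in these SF libraries.

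**Figure D1:**
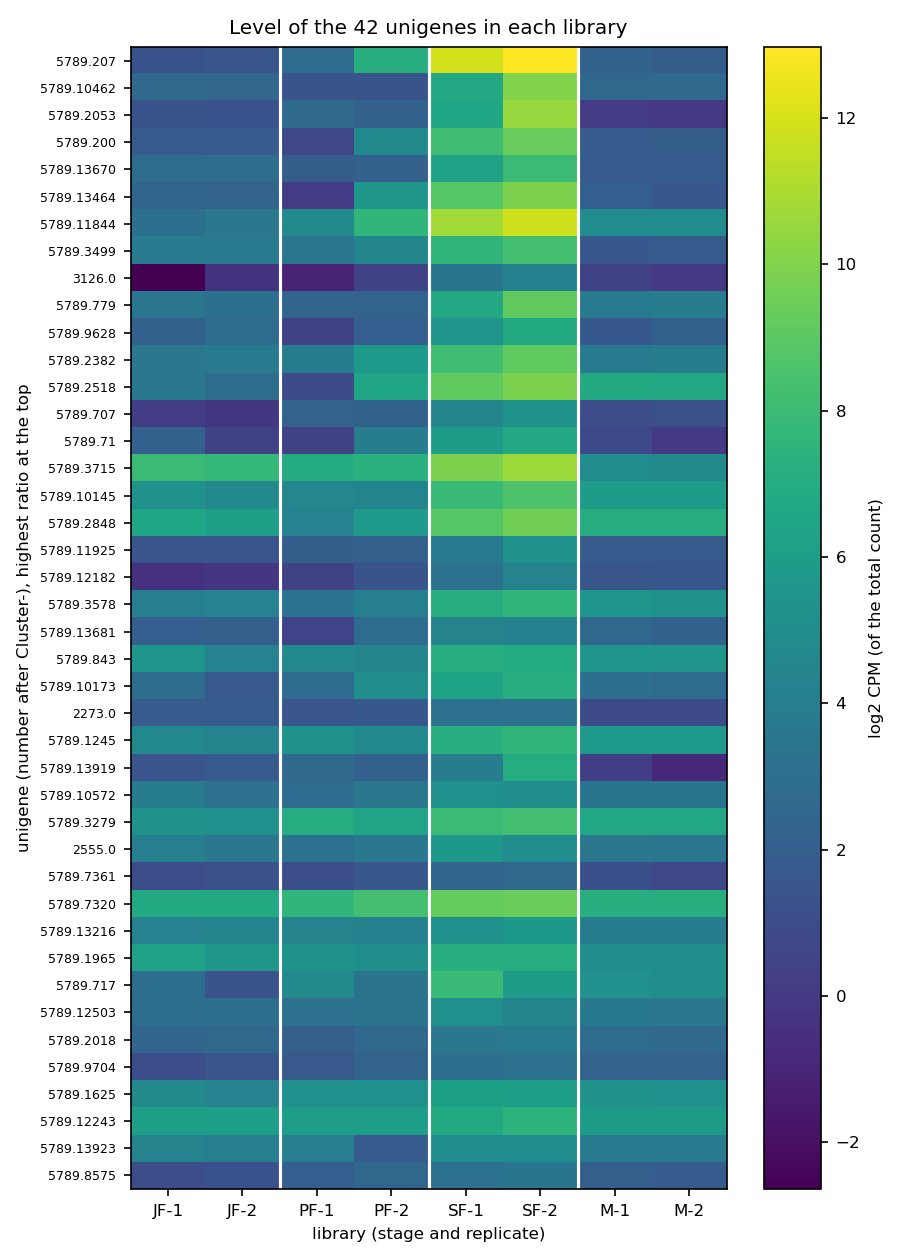
Level of each of the 42 members (rows, highest ratio at the top) in each of the 8 libraries (columns), as log2 CPM of the total count. Both SF columns are the brightest in each row, and in PF-2 several of the upper rows are brighter than in PF-1, for example Cluster-5789.207 with 141 CPM against 7.13.

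This unigene was Cluster-5789.207, which had the highest ratio (27.8) and the highest SF mean of all members. It had 3901 and 8013 CPM in SF, 7.13 and 141 in PF, 4.59 and 3.94 in M, and 2.46 and 2.87 in JF. By SF mean it was at rank 6 of all listed unigenes, and it took 0.390% and 0.801% of all counts in the SF libraries. The SF mean was 80.7 times that of PF, 1396 times that of M and 2234 times that of JF. The PF mean rested on replicate 2, whose level was 19.7 times that of replicate 1.

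The next members by ratio were high in SF and low in all other libraries, but the height in SF differed strongly between replicates. Cluster-5789.10462 had 108 and 1022 CPM in SF and from 2.60 to 6.36 CPM elsewhere. Cluster-5789.2053 had 97.9 and 1490.0 CPM in SF, 6.89 and 4.48 in PF, 2.62 and 2.47 in JF, and 1.09 and 0.97 in M. For both, replicate 2 of SF decided the stage mean, which was 565 ± 646 and 794 ± 984 CPM (SD, n = 2 libraries). The SF libraries differed most in these 2 members and in Cluster-5789.13919, which had 15.3 and 131 CPM in SF, 6.81 and 4.48 in PF, 2.84 and 3.39 in JF, and 1.21 and 0.56 in M. Its ratio was therefore only 2.24, although the SF mean was 12.9 times that of PF. Cluster-5789.779 had 109 and 578 CPM in SF, 13.7 and 15.9 in M, 11.2 and 8.28 in JF, and 5.45 and 4.95 in PF. In each of these 4 members SF replicate 2 was more than 5-fold above replicate 1, while the PF replicates differed by less than 2-fold.

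A second set of strongly peaking members was also raised in PF replicate 2. Cluster-5789.200 had 294 and 657 CPM in SF, 1.64 and 26.7 in PF, 3.55 and 3.89 in M, and 3.42 and 3.76 in JF. Cluster-5789.13464 had 456 and 951 CPM in SF, 1.04 and 48.3 in PF, 4.01 and 2.97 in M, and 5.24 and 5.12 in JF. In both, PF replicate 1 was the lowest of all libraries and PF replicate 2 the highest outside SF. Cluster-5789.2518 had 562 and 953 CPM in SF, 1.88 and 95.6 in PF, 113 and 111 in M, and 12.3 and 7.29 in JF, so that males and PF replicate 2 lay between SF and the remaining libraries.

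Of the other members with the highest ratios, Cluster-5789.13670 had 82.4 and 261 CPM in SF and from 3.59 to 7.55 CPM elsewhere, with JF second highest. Cluster-5789.3499 had 191 and 314 CPM in SF, 11.1 and 22.5 in PF, 13.9 and 13.7 in JF, and 3.00 and 3.63 in M. Cluster-3126.0 had 10.9 and 18.9 CPM in SF and from 0.16 to 1.34 CPM elsewhere. It was the only member with fewer than 10 counts in a library (3 counts in JF replicate 1), and its lower levels are therefore imprecise. Cluster-5789.3715, next after Cluster-5789.11844 by SF mean, had 955 and 1617 CPM in SF, 258 and 220 in JF, 123 and 158 in PF, and 29.6 and 27.4 in M. It was abundant in all female stages, and the SF mean was 5.39 times that of JF.

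**Figure D2:**
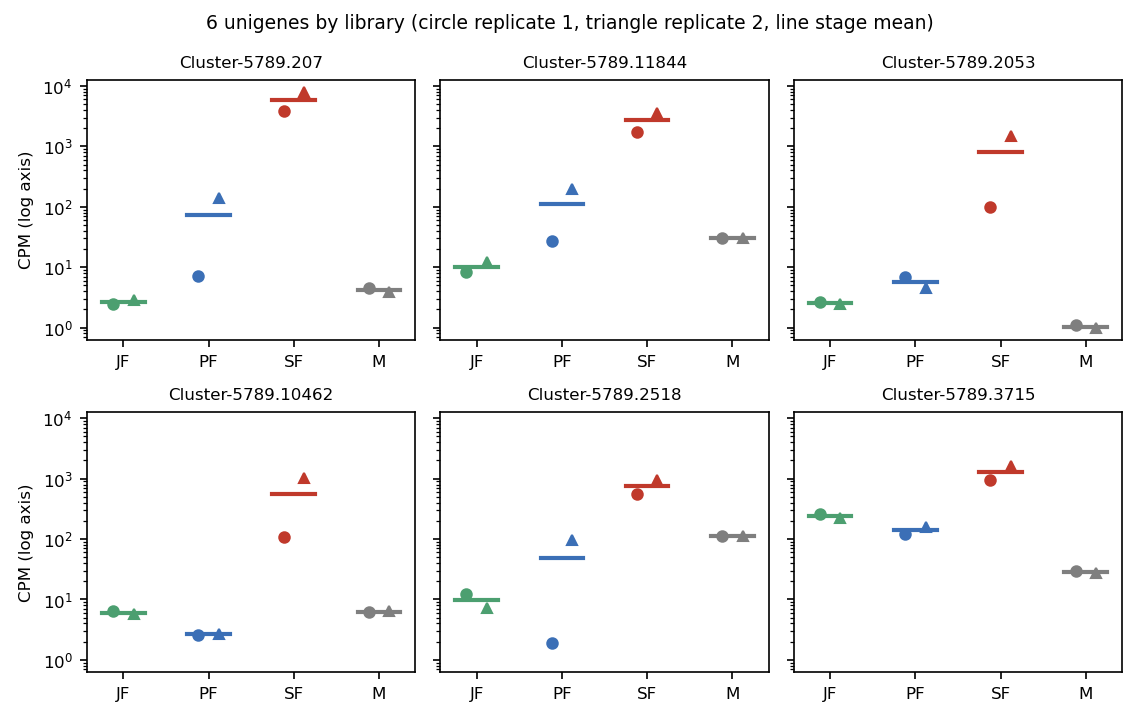
CPM (log axis) of 6 members in each stage, with a circle for replicate 1, a triangle for replicate 2 and a line for the stage mean. SF is highest in each panel. The SF replicates lie closest in Cluster-5789.3715 and Cluster-5789.2518 (1.69-fold for both) and furthest apart in Cluster-5789.2053 (15.2-fold), and the PF replicates are far apart in Cluster-5789.207, Cluster-5789.11844 and Cluster-5789.2518.

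At the other end of the list the differences were small. The 3 members with the lowest ratios were Cluster-5789.12243 (1.57), Cluster-5789.13923 (1.53) and Cluster-5789.8575 (1.50). Cluster-5789.12243 had 112 and 178 CPM in SF and from 57.2 to 71.4 CPM in the 6 other libraries. Cluster-5789.13923 had 31.5 and 30.8 CPM in SF, and its PF replicates had 16.6 and 3.78 CPM. Cluster-5789.8575 had 9.50 and 10.7 CPM in SF, and its next library was PF replicate 2 with 6.32 CPM. Just outside the list were Cluster-5789.7119 (197 and 220 CPM in SF, at most 132 CPM elsewhere), Cluster-7138.0 (15.0 and 18.7 CPM in SF, at most 10.0 CPM elsewhere) and Cluster-5789.6275 (101 and 92.9 CPM in SF, at most 62.1 CPM elsewhere), each with a ratio of 1.50 after rounding but under the minimum. The values on both sides of the minimum do not form a gap.

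Further members with low or moderate levels follow. In 6 members all libraries outside SF were under 5 CPM, and in 14 both JF libraries were. Besides Cluster-3126.0, the former included Cluster-5789.11925, which had 13.8 and 42.4 CPM in SF and from 2.72 to 4.19 CPM elsewhere, and Cluster-5789.7361, which had 5.55 and 6.09 CPM in SF and from 1.69 to 3.03 CPM elsewhere. Cluster-2273.0 had 9.32 and 9.11 CPM in SF, 3.59 and 3.39 in JF, 2.76 and 3.14 in PF, and 1.88 and 1.89 in M, so that the replicates of all stages were close. Cluster-2555.0 had 50.5 and 30.5 CPM in SF and from 9.41 to 16.5 CPM elsewhere. Among members with JF as the second highest stage, Cluster-5789.1965 had 145 and 137 CPM in SF and 79.7 and 50.2 in JF, and Cluster-5789.10572 had 36.5 and 32.5 CPM in SF and 15.1 and 9.43 in JF. Their SF replicates were close, and replicate 1 was the higher one in both. Cluster-5789.843 had 137 and 120.2 CPM in SF, 46.7 and 45.1 in M, 46.4 and 19.5 in JF, and 26.2 and 22.8 in PF. The members of this paragraph other than Cluster-3126.0 were named after their values had been seen.

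The rule took the lower SF library whichever it was, so it did not fix which replicate was higher. SF replicate 1 was the higher one in 10 of the 42 members, against 35.2% of the 7874 unigenes with at least 5 CPM in SF. SF replicate 2 was more than 2-fold above replicate 1 in 12 members, against 3.1% of these unigenes, and replicate 1 more than 2-fold above replicate 2 in 1 member, against 4.76%. This member was Cluster-5789.717, with 237 and 64.2 CPM in SF, 28.4 and 10.4 in PF, 38.1 and 35.4 in M, and 8.03 and 2.54 in JF. In all 21 members with the highest ratios, from 2.89 to 27.8, SF replicate 2 was the higher one, by 1.45-fold to 15.2-fold. In the 21 members with ratios from 1.50 to 2.61 this was so in 11. With 1 library on each side these are values without a test, and the members share their libraries.

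A similar split between replicates was seen in PF. PF replicate 2 was more than 2-fold above replicate 1 in 13 members, against 1.88% of the 7874 unigenes, and replicate 1 more than 2-fold above replicate 2 in 2 members, against 4.91%. The latter were Cluster-5789.717 and Cluster-5789.13923. In 10 members PF replicate 2 was more than 3-fold above replicate 1, and 49 of the 7874 unigenes had such a difference. Besides Cluster-5789.207, Cluster-5789.200, Cluster-5789.13464, Cluster-5789.11844 and Cluster-5789.2518 these were Cluster-5789.71, Cluster-5789.10173, Cluster-5789.2382, Cluster-5789.9628 and Cluster-5789.13681, named after their values had been seen. Cluster-5789.71 had 62.3 and 109 CPM in SF, 1.28 and 15.0 in PF, and from 0.97 to 4.55 CPM in JF and M. Cluster-5789.10173 had 84.3 and 141 CPM in SF, 7.17 and 33.0 in PF, and from 3.35 to 8.19 CPM in JF and M. In 9 of these 10 members SF replicate 2 was also above replicate 1, by 1.67-fold to 2.46-fold, the exception being Cluster-5789.13681 (20.2 and 18.3 CPM). The level in PF replicate 2 as a share of the SF mean was not the same for all of them. It was 2.36% in Cluster-5789.207, 5.62% in Cluster-5789.200, 6.86% in Cluster-5789.13464, 7.25% in Cluster-5789.11844, 12.6% in Cluster-5789.2518, 17.5% in Cluster-5789.71 and 29.2% in Cluster-5789.10173. In the others it was 5.20% (Cluster-5789.9628), 12.7% (Cluster-5789.2382) and 36.4% (Cluster-5789.13681). How the 2 PF pools differed is not stated in the labels, and the cause of the raised levels in PF replicate 2 was not tested. The calls of PF that rest on this library carry the same limit.

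**Figure D3:**
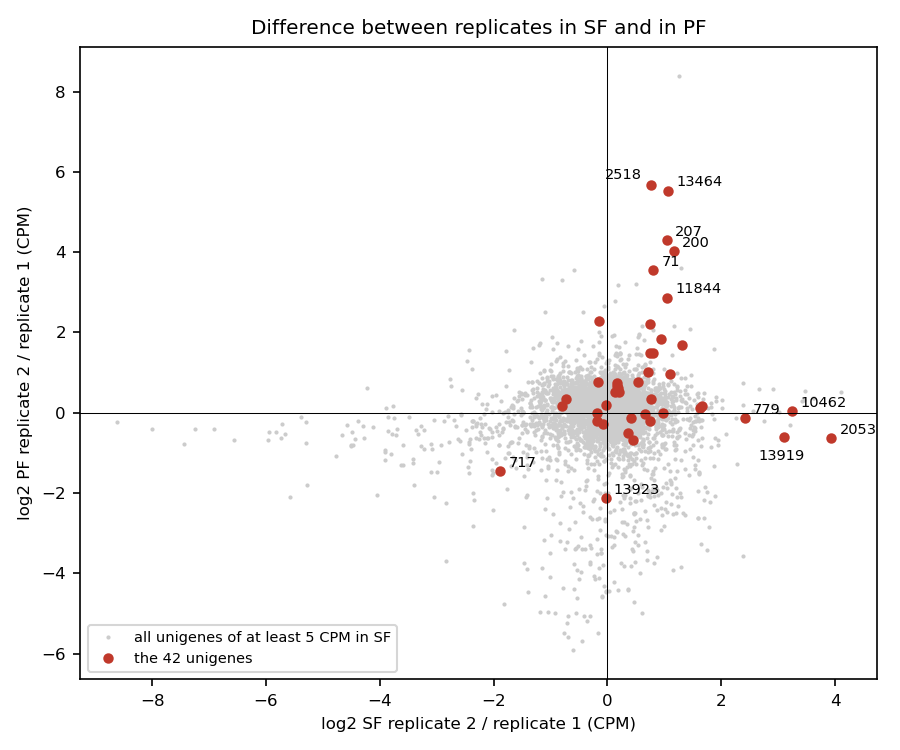
Log2 of replicate 2 over replicate 1 in SF (horizontal axis) and in PF (vertical axis), from CPM, for the 42 members (red) and for all 7874 unigenes with at least 5 CPM in SF (grey). The members at the top, such as Cluster-5789.2518 and Cluster-5789.13464, were raised in replicate 2 of both stages, while Cluster-5789.2053, Cluster-5789.10462, Cluster-5789.13919 and Cluster-5789.779 at the right differed by more than 5-fold between the SF replicates and by less than 2-fold between the PF replicates.

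The order of the stages below SF was not fixed by the rule, which only limited how far they could lie apart. By stage means, PF was second highest in 16 members, M in 16 and JF in 10. The place of PF could rest on replicate 2 alone, as in Cluster-5789.200 and Cluster-5789.13464. JF was lowest in 19 members, M in 12 and PF in 11. These stages were compared with edgeR's quasi-likelihood test in a single fit of all 8 libraries, scaled by TMM. A unigene was called up- or down-regulated when its absolute log2 fold change was over 1 and its p, adjusted by Benjamini-Hochberg over the 10822 tested unigenes, was under 0.05. All 42 members were tested. Each of these stages enters 2 of the comparisons, so the comparisons share libraries and are not independent. Of the 42 members, 14 were called in at least 1 comparison among JF, PF and M, and 28 in none. The like share over all tested unigenes was not taken, so this count is not read as high or low. Over all tested unigenes the median log2 fold change in M vs JF was -0.14 with TMM and -0.04 with DESeq2 size factors, so fold changes against JF are read beside this shift.

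In M vs PF, 3 members were up-regulated in males, against 18.1% of all tested unigenes, and 4 were down-regulated, against 15.9%. The up-regulated members were Cluster-5789.2848, Cluster-5789.3578 and Cluster-5789.10145. Cluster-5789.3578 had 47.1 and 41.6 CPM in M, 9.86 and 16.8 in PF, 17.2 and 19.4 in JF, and 136 and 198 in SF, and its M vs PF log2 fold change was 1.84 ± 0.25 (SE, here and below; edgeR adjusted p = 0.00117). Cluster-5789.2848 had 136 and 133 CPM in M, 19.8 and 56.1 in PF, 95.5 and 72.2 in JF, and 456 and 765 in SF, and the log2 fold change was 1.95 ± 0.47 (edgeR adjusted p = 0.0136). Cluster-5789.10145 had 62.5 and 63.8 CPM in M and 24.0 and 20.7 in PF, with a log2 fold change of 1.58. In these 3 members M was the second highest stage, and both male libraries were above both PF libraries. The call of Cluster-5789.2848 was lost without either male library.

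Among the members down-regulated in M vs PF, Cluster-5789.3715 and Cluster-5789.3499 were also down-regulated in M vs JF. Cluster-5789.3715 had log2 fold changes of -2.20 ± 0.23 against PF (edgeR adjusted p = 0.000456) and of -3.01 ± 0.24 against JF (edgeR adjusted p = 0.000255). Cluster-5789.3499 had a log2 fold change of -2.23 ± 0.35 against PF (edgeR adjusted p = 0.00242) and was called against JF with an edgeR adjusted p of 0.00431. Both had their lowest level in males, and in both the male libraries lay below all 6 female libraries. These calls were kept under all alternatives listed in the processing summary. Cluster-5789.207 (log2 fold change -3.96, edgeR adjusted p = 0.0419) and Cluster-5789.707 (edgeR adjusted p = 0.0312, with a log2 fold change barely past the limit) were close to a threshold. Without PF replicate 2 the log2 fold change of Cluster-5789.207 was -0.71 and it was not called (edgeR adjusted p = 0.197). Its call was also lost without either library of JF, SF or M. That of Cluster-5789.707 was lost without any single library other than JF replicate 2. Scaled by DESeq2 size factors, 4 members were up-regulated and 3 down-regulated in this comparison, so the larger direction changed with the scaling.

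In PF vs JF, 6 members were up-regulated in PF, against 17.2% of all tested unigenes. edgeR called 0 down-regulated members, against 21.6% of all tested unigenes, while 3 members were lower in PF at an unadjusted p under 0.05, and DESeq2 called 1. The largest log2 fold changes were those of Cluster-5789.207 (4.69 ± 1.33, edgeR adjusted p = 0.0255) and Cluster-5789.11844 (3.36 ± 0.91, edgeR adjusted p = 0.0218). The size of both rested on PF replicate 2. Without it the log2 fold changes were 1.44 and 1.42, which is still over the limit of 1. Both calls were lost without either JF library. Cluster-5789.707 had 4.73 and 4.72 CPM in PF, 1.12 and 0.92 in JF, 2.09 and 2.33 in M, and 21.6 and 42.3 in SF. Its replicates were close in the stages below SF, and PF was above JF by 2.18 ± 0.33 on the log2 scale (edgeR adjusted p = 0.00163). Cluster-5789.3279, Cluster-5789.7320 and Cluster-5789.8575 had log2 fold changes of 1.47, 1.18 and 1.12, and the calls of Cluster-5789.7320 and Cluster-5789.8575 were lost without PF replicate 2. That of Cluster-5789.8575 was also lost without JF replicate 1.

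In M vs JF, 6 members were up-regulated in males, against 13.6% of all tested unigenes, and 2 were down-regulated, against 15.6%. The down-regulated members were Cluster-5789.3715 and Cluster-5789.3499. Among the up-regulated members, Cluster-5789.717 had the largest log2 fold change (2.88 ± 0.93, edgeR adjusted p = 0.0454), and its call was lost without either library of JF or of M. Cluster-5789.12182 had 2.88 and 3.07 CPM in M, 0.75 and 0.88 in JF, 1.36 and 2.68 in PF, and 9.41 and 20.2 in SF, and M was above JF by 1.90 ± 0.46 on the log2 scale (edgeR adjusted p = 0.0141). This call, too, was lost without either library of JF or of M. Cluster-5789.3279 had 101 CPM in both male libraries, 40.9 and 37.0 in JF, 128 and 90.5 in PF, and 252 and 322 in SF. It was up-regulated in M vs JF (1.43, edgeR adjusted p = 0.00201) as in PF vs JF, and its levels in males and PF overlapped. The remaining calls in M vs JF were Cluster-5789.1245 (1.38), Cluster-5789.3578 (1.33) and Cluster-5789.707 (1.18). The call of Cluster-5789.707 was lost without either library of JF or of M. Cluster-5789.2518 had the highest log2 fold change of all members in M vs JF (3.59 ± 1.50) and was not called (edgeR adjusted p = 0.0953). The male libraries had 113 and 111 CPM and the JF libraries 12.3 and 7.29. In the single fit the spread of a unigene was estimated over all stages. The PF libraries of this member had 1.88 and 95.6 CPM, and what they added to its standard error was not tested.

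**Figure D4:**
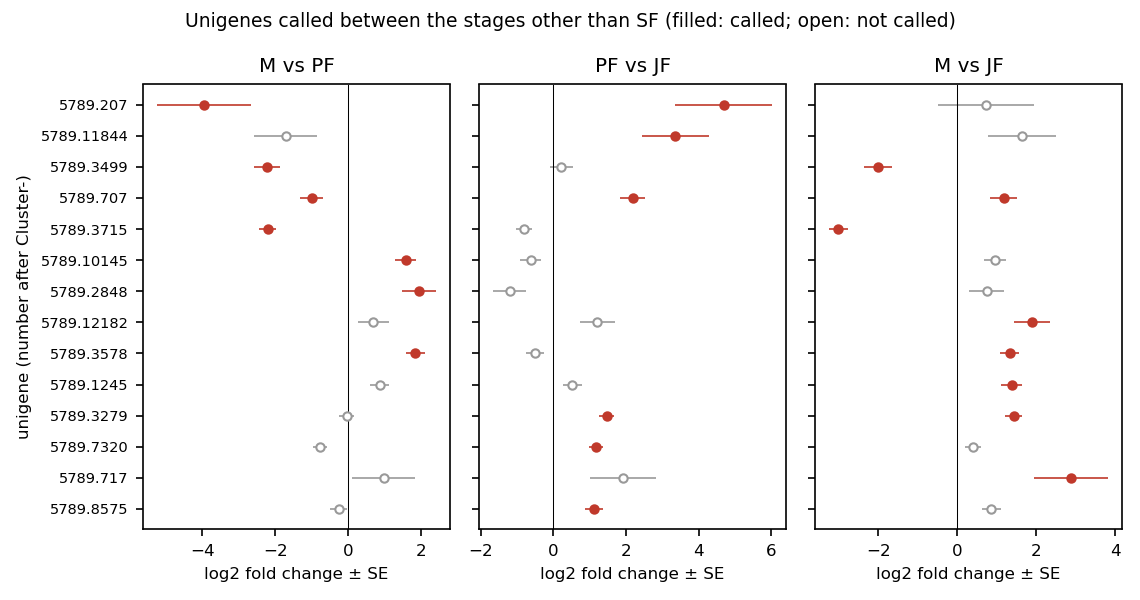
Log2 fold change with its standard error in M vs PF, PF vs JF and M vs JF, from the edgeR fit, for the 14 members called in at least 1 of these comparisons. Filled red points were called and open grey points were not. Cluster-5789.3715 and Cluster-5789.3499 lie on the negative side in both comparisons with males, and Cluster-5789.207 has the widest standard errors among the called values.

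The share of members called was below that of all tested unigenes in each comparison and direction except up-regulation in M vs JF, where it was 14.3% against 13.6%. The rule kept gaps between neighbouring stages below SF smaller than the gap to SF, which was as low as 0.78 (log2) in Cluster-5789.13923. No such limit held for all tested unigenes, so these shares and the median fold changes below are not like for like. The differences in share were not tested, and some turned with the processing. In 18 alternatives, members that a filter had removed stayed in the members' share as not called. With at least 10 CPM in 2 libraries, the share for up-regulation in M vs JF was thus 16.7% against 17.5%. Members such as Cluster-5789.12182 were not tested there, so which share was higher is not settled for this filter. Counted in this way, the members' share was the higher one in 4 alternatives for up-regulation in PF vs JF. The members' share was higher in 2 for down-regulation in M vs PF, in 13 for up-regulation in M vs JF, and in 0 otherwise. Without PF replicate 1 it was 31.0% against 17.5% for up-regulation in PF vs JF, and 21.4% against 14.6% for down-regulation in M vs PF. The median absolute log2 fold change of the members lay near that of all tested unigenes, with 0.82 against 0.75 in M vs PF, 0.83 against 0.85 in PF vs JF and 0.79 against 0.67 in M vs JF. The counts depended on the PF libraries. Without PF replicate 1, which left the higher PF replicate for 28 members, 13 members were up-regulated in PF vs JF and 9 down-regulated in M vs PF. Without PF replicate 2, the members' share was below that of all tested unigenes in both directions of PF vs JF and of M vs PF. The share of members called thus changed with the PF library that was kept.

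Some further properties of the members were not criteria of the rule. An estimated count need not be whole where reads fit more than 1 unigene and are divided between them. In 10 members (23.8%) the counts were whole in all 8 libraries, against 22.9% of all listed unigenes and 15.8% of the 7874 with at least 5 CPM in SF. The rule set the members lower outside SF than in SF, so the shares are not like for like. No test was made. The 10 members included Cluster-5789.2053 and Cluster-5789.71. In 32 members at least 1 library had a count that was not whole, and their values are therefore uncertain where reads were shared with another unigene. Cluster-5789.7320 and Cluster-5789.13923 had no whole count in any library. Of the 42 members, 39 (92.9%) carried the ID of the main assembly cluster, against 94.1% of all listed unigenes. The 3 others were Cluster-3126.0, Cluster-2273.0 and Cluster-2555.0. Within the main cluster no pair of members had neighbouring numbers (0 pairs), and no like count was taken for other unigenes.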

How the data were processed

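The members and comparisons were chosen with earlier results of these data known. Per the methods, paired-end HiSeq reads of poly-A RNA were filtered for quality and assembled with Trinity. Unscaled estimated counts of 11114 unigenes, all above 0, were deposited for each library. The aligner and the counter were not given in the sources used here. Levels are CPM of the library total (17172891 to 27160267 counts). For the tests, estimated counts were rounded to whole numbers. edgeR 4.0.16 (limma 3.58.1, R 4.3.3) was used with TMM scaling and its filter on low counts, which kept 10822 unigenes, in 1 fit of 8 libraries with stage as the only term (4 residual degrees of freedom). The script was tested on simulated data. Standard errors are the log2 fold change divided by the square root of F. The authors' thresholds were used, and all 6 counts of calls were recomputed under other scalings, filters, fits and thresholds, DESeq2 1.42.0, the replicate number as a block, members chosen on TMM-scaled CPM, and each library left out.

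Members were named by a rule: the 10 highest ratios, the 5 highest SF means, members of the study's table, the 3 largest called changes per direction and comparison, the 3 largest differences between SF libraries, and 3 on each side of the ratio minimum (23 members). Members named beyond it were chosen after their values were seen. Counts were called whole to within 0.000001.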

Additional observations from a re-analysis of the deposited data

How the results depend on the processing

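The number of unigenes that met the rule was 42 as reported, 87 with the minimum ratio set midway between 1 and 1.5, and 131 with the ratio of stage means. It was from 39 to 123 with each library left out, and 123 without SF replicate 1, 90 without SF replicate 2 and 52 without PF replicate 2. With TMM-scaled CPM 47 unigenes met it, which included 40 of the 42, and with DESeq2 size factors 38, which included 36. With DESeq2 on all 8 libraries, 5 members were up-regulated in M vs PF, 10 up-regulated and 1 down-regulated in PF vs JF, and 10 up-regulated in M vs JF, against 3, 6, 0 and 6 as reported. With edgeR without the SF libraries, 5 were up-regulated in M vs PF, 1 down-regulated in PF vs JF and 4 down-regulated in M vs JF. On the 4 libraries of a comparison these were 6, 1 and 4, with 11 up-regulated in M vs JF. With the adjusted p alone, 2 were down-regulated in PF vs JF, while M vs JF gave 10 higher and 4 lower in males. With the fold change threshold inside the test, M vs PF gave 1 member higher and 2 lower in males, and there were 2 up-regulated in PF vs JF and 0 in M vs JF. The share over all tested unigenes moved with the setting too. For up-regulation in M vs JF it was 13.6% as reported and 17.3% on the 4 libraries. It was 21.6% with the adjusted p alone and 7.53% with the threshold inside the test. The changes in these counts are therefore not read as changes in the members alone. With each library left out, M vs PF gave from 2 to 6 members higher and from 2 to 9 lower in males, PF vs JF from 3 to 13 higher and from 0 to 5 lower in PF, and M vs JF from 3 to 10 higher and from 2 to 4 lower in males. Of the 21 calls of single members, 7 were kept under all of these alternatives, and no fold change of a called member changed its sign. Apart from fewer samples or a stricter criterion, the cause of these differences was not tested.

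Whether the replicate numbers pair the samples is not stated in the sources used here. A correlation over all tested unigenes cannot exclude a pairing. The deviations of same-numbered libraries correlated at 0.12 between JF and SF and from -0.03 to 0.07 between the other stages, over 10822 unigenes. With the replicate number as a block, 1 member was down-regulated in PF vs JF and 8 were up-regulated, against 0 and 6, and the call of Cluster-5789.207 in M vs PF was lost.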
